A study of Mus musculus with 8 samples.

Results

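Marker genes of the neural crest, of glia, of neurons and of adrenal chromaffin cells were followed in whole kidneys of mouse embryos with and without Grb2 in the ureteric bud. The set holds 30 genes chosen by name as markers of these cell types, so that a rise of neural-type genes could be set beside the genes that define nerves. Of the 30 genes, 29 were measured, out of 22180 genes on the array. The 1 gene without a value was Phox2a, a homeobox gene of autonomic neurons, whose probe set is annotated to Phox2a and Inppl1 together and was not named here. Each measured gene is given by its single-symbol probe set with the highest mean over all 8 arrays.

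The kidneys came from 8 embryos of 1 litter at E14.5 (E, embryonic day), with 4 embryos labelled Grb2 UB-cKO, a knockout of Grb2 specific to the ureteric epithelium (written Grb2_cKO here), and 4 labelled wild-type control. Both kidneys of an embryo were pooled into 1 sample, so each array stands for 1 animal. The Cre driver, the alleles and the strain are details not given in the sources used here. GRB2 is an adaptor that joins activated receptor tyrosine kinases to RAS signalling, and RET is its best known receptor in the ureteric bud. The deletion lies in an epithelium, and the genes described here were picked as markers of nerves, glia and chromaffin cells, which lie outside it.

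The kidney is supplied by sympathetic and sensory axons that grow in along arteries, with their cell bodies in ganglia outside the organ. Axons carry little of their neuron's messenger RNA, so RNA of a whole kidney holds the transcripts of Schwann cell precursors and of any ganglion or adrenal tissue that stayed attached, more than those of the axons. Neural crest cells give rise to all of these cell types, with SOX10 and FOXD3 early and PHOX2A, HAND2 and ISL1 in the sympathetic and chromaffin branch. Many genes named for neurons, among them those of vesicle release and of microtubule binding, are also used by epithelial, stromal and endocrine cells. In RNA of a whole organ, fewer cells of a type and less RNA per cell cannot be told apart.

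Array medians were 6.61 to 6.72 on the log2 scale, and the number of arrays limits the precision. Grb2 itself stood at 8.20 ± 0.12 in Grb2_cKO against 8.65 ± 0.03 in controls (SD, n = 4 each; adjusted p = 0.0017 in limma). The kidney markers changed too: 8 of 14 fell and 3 rose in Grb2_cKO, with a median log2 fold change of -0.39. Over all genes, 14.3% fell and 13.7% rose at an adjusted p under 0.05 in limma. Foxd1, of stromal progenitors, rose by 1.07, while the nephric and duct genes Emx2, Pax2 and Lhx1, with control means of 9.88, 10.5 and 10.4, fell (-0.48, -0.96 and -0.67; adjusted p = 0.000731, 0.000778 and 0.00139). The groups also differed in sex: 3 Y-linked genes averaged 9.94 to 10.1 in every Grb2_cKO kidney, but 4.09 to 4.24 in 3 of the controls and 9.94 in the remaining one, control replicate 3. No detection calls were used, so a dim probe set cannot be told from background, and levels are compared between embryos for 1 gene at a time, never between genes.

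The 3 vesicle genes Syt1, Snap25 and Syp rose in the Grb2_cKO kidneys, as did Map2, Dbh and Elavl2, and Elavl4 fell. Of the 29 genes, 11 were higher, 1 was lower and 17 did not pass an adjusted p of 0.05 in limma, a linear model with moderated spread over all genes. This is 41.4% of the genes, against 28.1% of all genes on the array. The share that rose was 37.9%, against 13.7% of all genes, and the share of all genes that fell was 14.3%. The groups did not overlap for 9 genes that were higher and 1 that was lower, against 15.2% and 16.0% of all genes (31.2% in either direction). The median log2 fold change, Grb2_cKO minus control, was 0.20 over the 29 genes and 0.0058 over all genes, and 24 of the 29 values were above 0. With array medians set equal, these medians were 0.13 and -0.062. The genes were chosen with earlier results of these arrays known, so these shares are a description.

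**Figure D1:**
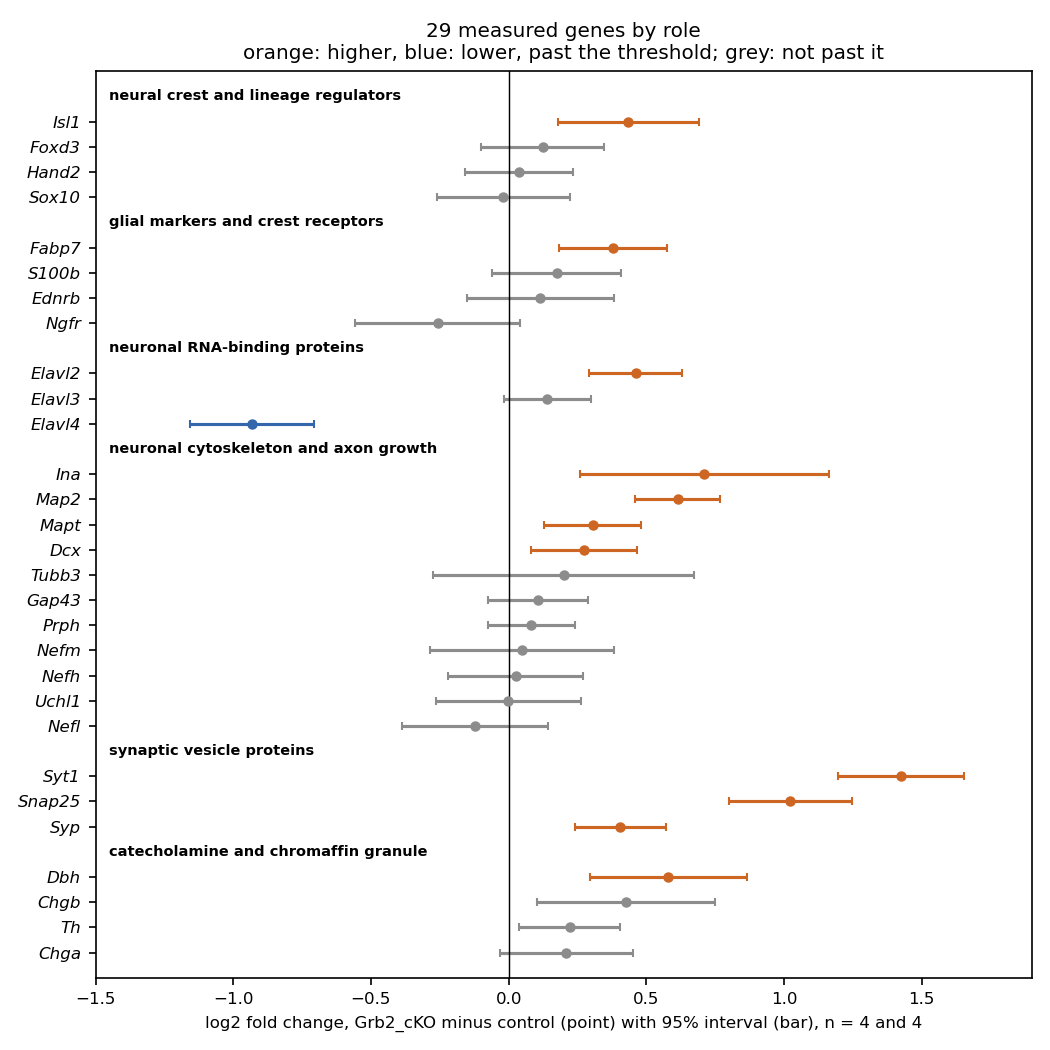
Log2 fold change, Grb2_cKO minus control, of the 29 measured genes by role, with 95% intervals from limma over 4 and 4 embryos. Points past the threshold are orange where higher (11 genes) and blue where lower (Elavl4 at -0.93), and the 3 vesicle genes Syt1, Snap25 and Syp all lie above 0.

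The early regulators of the neural crest showed no change that passed. Sox10, the transcription factor gene that marks crest cells and all peripheral glia, stood at 6.23, 5.96, 6.50 and 6.24 in controls and at 6.33, 6.17, 6.19 and 6.18 in Grb2_cKO. The Grb2_cKO values lie within the range of the controls, and the log2 fold change was -0.019 (95% interval -0.26 to 0.22, adjusted p = 0.925). Foxd3, which keeps crest cells undifferentiated, stood at 0.12 (-0.10 to 0.35, adjusted p = 0.421). Hand2, a regulator of sympathetic neurons and of limb and heart mesenchyme, stood at 0.038 (-0.16 to 0.23, adjusted p = 0.808).

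Isl1 was the 1 of 4 measured regulators that rose. The share that passed was 25%, near the 28.1% of all genes. It encodes a LIM homeodomain factor of sensory and sympathetic neurons that is also active in urogenital mesenchyme. Isl1 stood at 5.78, 5.87, 5.69 and 5.51 in controls and at 6.32, 6.21, 6.20 and 5.85 in Grb2_cKO. Grb2_cKO replicate 4 lay at the level of the highest controls, and the other 3 lay above them all. The log2 fold change was 0.43 (SE 0.11, adjusted p = 0.0179), but with array medians set equal it was 0.37 and missed the threshold (adjusted p = 0.0505).

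Among glial markers and crest receptors, 1 of 4 genes rose and 3 did not pass. The share that passed was 25%, near the 28.1% of all genes. Fabp7, the fatty acid-binding protein gene of radial glia and Schwann cell precursors, stood at 9.18, 9.34, 9.23 and 9.16 in controls and at 9.46, 9.49, 9.70 and 9.77 in Grb2_cKO. All 4 Grb2_cKO embryos were above all controls, by 0.38 on the log2 scale (SE 0.09, adjusted p = 0.00948). S100b, a calcium-binding protein gene of Schwann cells, stood at 0.17 (SE 0.10, adjusted p = 0.267). Ngfr, the low-affinity neurotrophin receptor gene that marks crest cells and also some mesenchyme, stood at -0.26 (SE 0.13, adjusted p = 0.194). Ednrb, the endothelin receptor gene needed by migrating crest cells and also active in vessels, stood at 0.12 (SE 0.12, adjusted p = 0.545). Within the Grb2_cKO group Ednrb was 9.80 and 9.79 in replicates 1 and 2 and 10.3 and 10.2 in replicates 3 and 4, against 9.85 to 9.97 in controls. Fabp7 likewise had replicates 1 and 2 below replicates 3 and 4.

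The 3 neuronal members of the ELAV family, RNA-binding proteins that stabilize messenger RNAs in differentiating neurons, differed in direction. Elavl4 stood at 6.84, 6.64, 6.70 and 6.67 in controls and at 5.85, 5.95, 5.83 and 5.50 in Grb2_cKO. No values overlapped, and Elavl4 fell 1.91-fold (log2 fold change -0.93, SE 0.10, adjusted p = 0.000223), the 1 fall in the set. Elavl2 stood at 7.26, 7.27, 7.18 and 7.11 in controls and at 7.72, 7.57, 7.59 and 7.79 in Grb2_cKO. It was higher in all 4 Grb2_cKO embryos, 1.38-fold (0.46, SE 0.08, adjusted p = 0.00161). Elavl3 stood at 0.14 (SE 0.07, adjusted p = 0.183), with overlapping groups. How far the probe sets of these close relatives read each other's transcripts is something not given in the sources used here.

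**Figure D2:**
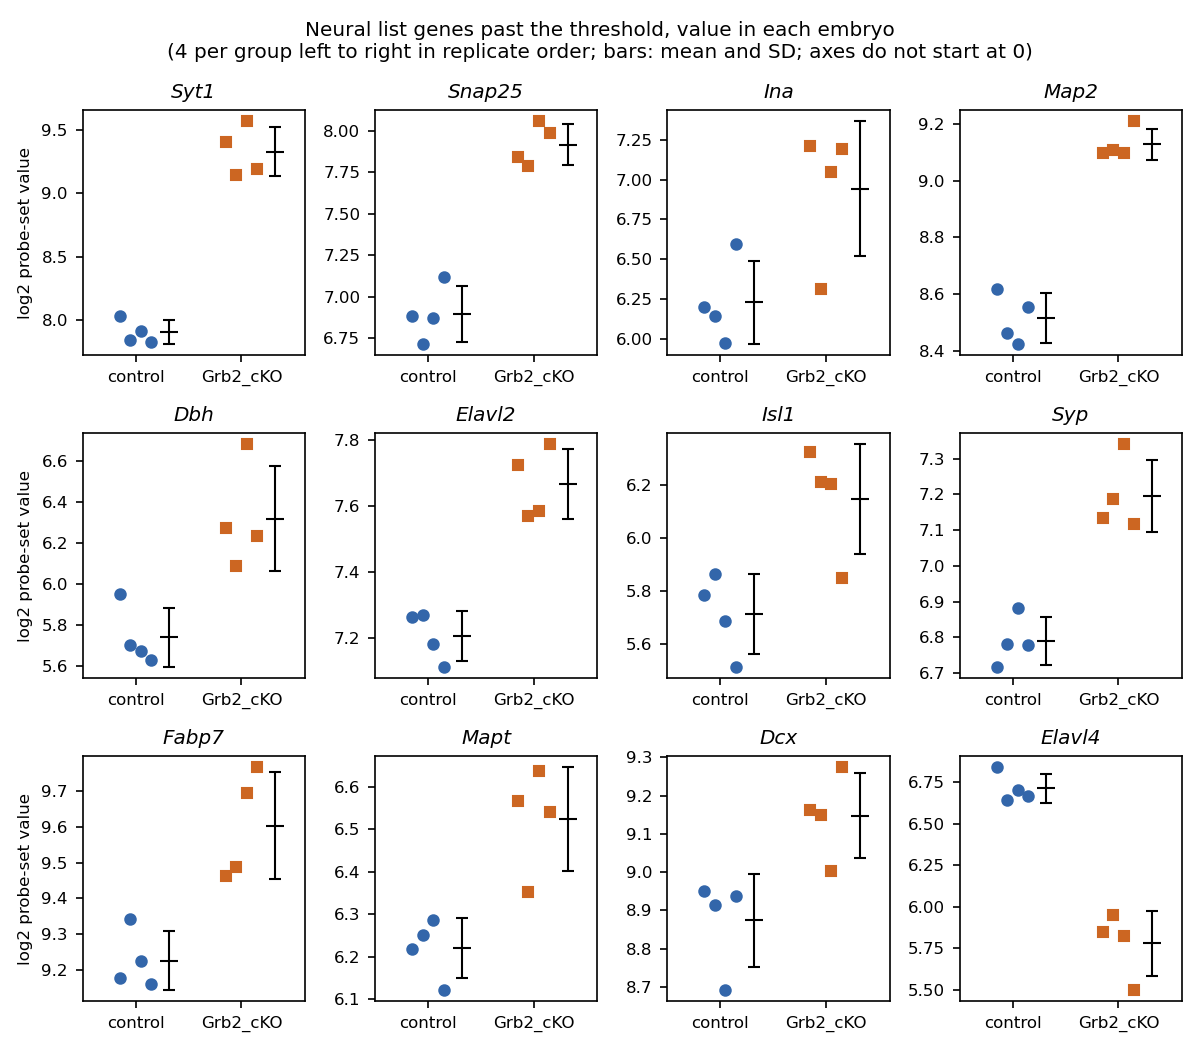
Log2 probe-set values of the 12 genes past the threshold in each of 4 control (blue circles) and 4 Grb2_cKO embryos (orange squares), with the mean and SD of each group as black bars and an axis of its own for each gene. Groups overlap for Ina and Isl1, where a single Grb2_cKO embryo lies among the controls, and are separate for the other genes.

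The vesicle genes were the group in which every measured member rose, 3 of 3, beside the 13.7% of all genes that rose. Syt1, which encodes the calcium sensor that triggers vesicle fusion, stood at 8.03, 7.84, 7.92 and 7.83 in controls and at 9.41, 9.15, 9.57 and 9.19 in Grb2_cKO. The lowest Grb2_cKO embryo was more than 1 unit above the highest control, and Syt1 rose 2.68-fold (1.42, SE 0.10, adjusted p = 3.72e-05). Snap25, a membrane SNARE of the fusion machinery, stood at 6.88, 6.71, 6.87 and 7.12 in controls and at 7.84, 7.79, 8.06 and 7.99 in Grb2_cKO. It rose 2.03-fold (1.02, SE 0.10, adjusted p = 0.000139), with separate groups. Syp, which encodes synaptophysin, an abundant membrane protein of synaptic vesicles, stood at 6.72, 6.78, 6.88 and 6.78 in controls and at 7.14, 7.19, 7.34 and 7.12 in Grb2_cKO. It rose 1.32-fold (0.41, SE 0.07, adjusted p = 0.00274). A second Syp probe set was dimmer and differed by 0.032 between the groups, at 5.43 ± 0.10 in controls and 5.46 ± 0.09 in Grb2_cKO (SD, n = 4 each), so the rise rests on 1 of 2 probe sets.

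Of 11 genes of the neuronal cytoskeleton and of axon growth, 4 rose, none fell and 7 did not pass. The share that passed was 36.4%, against 28.1% of all genes. Map2, a microtubule-associated protein gene of dendrites, stood at 8.62, 8.46, 8.42 and 8.56 in controls and at 9.10, 9.11, 9.10 and 9.21 in Grb2_cKO. The groups were far apart beside their spread, and Map2 rose 1.53-fold (0.61, SE 0.07, adjusted p = 0.000261). Mapt, which encodes the axonal microtubule-binding protein tau, stood at 6.22, 6.25, 6.29 and 6.12 in controls and at 6.57, 6.35, 6.64 and 6.54 in Grb2_cKO. It was higher by 0.30 (SE 0.08, adjusted p = 0.0161), and without Grb2_cKO replicate 3 it stood at 0.27 and missed the threshold (adjusted p = 0.0511).

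Dcx and Ina passed by a smaller margin. Dcx, doublecortin, binds microtubules in migrating neurons, and stood at 8.95, 8.91, 8.69 and 8.94 in controls and at 9.16, 9.15, 9.003 and 9.27 in Grb2_cKO. The lowest control was replicate 3, and the lowest Grb2_cKO embryo lay just above the highest control. The log2 fold change was 0.27 (SE 0.09, adjusted p = 0.0379). It missed the threshold without control replicate 2, 3 or 4 or Grb2_cKO replicate 1, 2 or 4, with values of 0.29, 0.21, 0.30, 0.27, 0.27 and 0.23. With array medians set equal it was 0.21 (adjusted p = 0.118).

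Ina, which encodes the neurofilament-like protein alpha-internexin, stood at 6.20, 6.15, 5.98 and 6.59 in controls and at 7.21, 6.32, 7.05 and 7.19 in Grb2_cKO. Grb2_cKO replicate 2 lay among the controls, and the other 3 were above them. The log2 fold change was 0.71 (SE 0.20, adjusted p = 0.0253). It missed the threshold without control replicate 1, 2 or 3 or Grb2_cKO replicate 1, 3 or 4, with values of 0.70, 0.68, 0.63, 0.62, 0.67 and 0.63, and passed without the other embryos.

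The other 7 genes of this group did not pass. Nefl, Nefm and Nefh, the light, medium and heavy neurofilament chains, stood at -0.12, 0.050 and 0.025 (adjusted p = 0.512, 0.852 and 0.902). Prph, the peripherin filament of peripheral neurons, stood at 0.082 (adjusted p = 0.448), and Gap43, a growth cone protein gene, at 0.11 (adjusted p = 0.387). Tubb3, the neuronal beta-tubulin gene, stood at 6.43, 6.08, 6.69 and 6.85 in controls and at 7.001, 6.24, 7.08 and 6.52 in Grb2_cKO. Its groups overlapped widely, and the log2 fold change of 0.20 had an interval of -0.27 to 0.67 (adjusted p = 0.555). Uchl1, a ubiquitin hydrolase gene of neurons that is also active in developing kidney tubes, stood at -0.0018 (SE 0.12, adjusted p = 0.994). Its second probe set differed by -0.069.

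Of the 4 catecholamine and granule genes, 1 rose and 3 did not pass, with all 4 values above 0. The share that passed was 25%, near the 28.1% of all genes. Dbh, the enzyme that makes noradrenaline from dopamine, stood at 5.95, 5.70, 5.67 and 5.63 in controls and at 6.27, 6.09, 6.68 and 6.24 in Grb2_cKO. All Grb2_cKO embryos were above all controls, and Dbh rose 1.49-fold (0.58, SE 0.13, adjusted p = 0.00729). Th, the first and rate-limiting enzyme of the same pathway, stood at 6.54, 6.43, 6.52 and 6.40 in controls and at 6.78, 6.49, 6.77 and 6.74 in Grb2_cKO. Only Grb2_cKO replicate 2 lay among the controls, and the log2 fold change was 0.22 (SE 0.08, adjusted p = 0.072). It passed without that embryo (0.29, adjusted p = 0.0159), without the dimmest genes (0.22, 0.0462) and with array weights (0.24, 0.0436). In every other setting Th missed the threshold. Among these were quantile normalization (0.16, adjusted p = 0.175) and array medians set equal (0.15, 0.179).

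Chgb, which encodes chromogranin B of dense-core granules, stood at 5.15, 5.33, 4.89 and 5.24 in controls and at 5.63, 5.19, 5.86 and 5.62 in Grb2_cKO. Again replicate 2 was the Grb2_cKO embryo among the controls. The log2 fold change was 0.43 (SE 0.14, adjusted p = 0.0525), and it passed without replicate 2 (0.56, adjusted p = 0.00829), with a trended and robust spread (0.43, 0.0456) and with array weights (0.46, 0.0402). In every other setting that fitted Chgb it missed the threshold. Among these were quantile normalization (0.41, adjusted p = 0.0593) and array medians set equal (0.36, 0.0805). Chga, the chromogranin A gene of the same granules, stood at 0.21 (SE 0.11, adjusted p = 0.191), with its highest value, 7.81, in Grb2_cKO replicate 3.

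The Grb2_cKO embryos differed among themselves in these genes. Replicate 2 had the lowest value of the 4 in 6 of the 11 genes that rose and in 13 of all 29. Replicate 3 had the highest value in 5 of the 11 and in 12 of the 29. Measured against the control mean of each gene, the median deviation over the 29 genes was 0.12, 0.13, 0.38 and 0.25 in Grb2_cKO replicates 1 to 4, and -0.025 to 0.011 in the controls. The controls lie near 0 by construction, since that mean is their own, so this measure does not compare the spread of the groups.

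RefSeq promoter sequences were at hand for 22 of the 29 measured genes, and 5 are shown: those of the vesicle gene with the largest rise, of a microtubule gene that rose and of the gene that fell, and, for a motif they share, those of Th and Chgb, which did not pass. Each is the 250 bases before a RefSeq start site on GRCm38.p6, read in the direction of transcription. For Syt1 and Elavl4, which have 2 and 4 start sites in the table, the first one listed whose window holds the motif is shown. Capitals mark CAGCTG, an E-box of the kind bound by proneural factors, in Syt1 and Elavl4. They mark the reverse complement of GGACAGC, the right part of the RE1 element bound by the neuronal repressor REST, in Map2, and TGACGTCA, the cyclic AMP response element, in Th and Chgb.
Syt1, chr10:109009112-109009361, minus strand: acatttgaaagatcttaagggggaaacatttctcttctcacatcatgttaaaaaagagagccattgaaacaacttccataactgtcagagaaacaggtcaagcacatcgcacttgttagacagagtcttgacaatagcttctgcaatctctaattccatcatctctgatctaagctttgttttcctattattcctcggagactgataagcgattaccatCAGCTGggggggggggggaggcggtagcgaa
Map2, chr1:66175079-66175328, plus strand: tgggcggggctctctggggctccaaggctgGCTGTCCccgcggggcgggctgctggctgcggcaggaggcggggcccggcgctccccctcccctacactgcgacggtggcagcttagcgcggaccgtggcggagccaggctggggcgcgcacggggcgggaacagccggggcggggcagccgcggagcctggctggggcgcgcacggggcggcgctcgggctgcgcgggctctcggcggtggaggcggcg
Elavl4, chr4:110287528-110287777, minus strand: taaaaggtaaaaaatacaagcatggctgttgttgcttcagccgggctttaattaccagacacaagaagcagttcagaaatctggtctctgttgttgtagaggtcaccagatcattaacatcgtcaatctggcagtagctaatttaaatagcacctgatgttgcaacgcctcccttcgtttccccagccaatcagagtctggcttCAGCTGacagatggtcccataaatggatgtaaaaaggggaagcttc
Th, chr7:142899996-142900245, minus strand: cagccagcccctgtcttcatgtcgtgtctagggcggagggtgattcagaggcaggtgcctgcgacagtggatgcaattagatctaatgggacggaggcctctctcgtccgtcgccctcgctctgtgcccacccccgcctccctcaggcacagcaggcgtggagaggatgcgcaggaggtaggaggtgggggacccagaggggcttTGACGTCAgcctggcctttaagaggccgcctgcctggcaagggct
Chgb, chr2:132781392-132781641, plus strand: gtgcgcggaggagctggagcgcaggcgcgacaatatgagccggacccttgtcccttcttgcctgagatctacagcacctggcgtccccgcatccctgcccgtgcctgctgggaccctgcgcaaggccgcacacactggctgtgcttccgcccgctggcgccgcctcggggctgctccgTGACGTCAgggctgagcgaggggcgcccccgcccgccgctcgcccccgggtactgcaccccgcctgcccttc

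The motifs were searched on both strands of all 250-base windows of a gene. TGACGTCA was found in 3 of the 22 genes, Th, Chgb and Foxd3 (13.6%), and in 1.77% of the 27025 genes of the table. In Th its first base lies 45 bases before the start, and in Chgb 72 bases before it. CAGCTG was found in 7 of 22 genes (31.8%, against 14.7% of all): Syt1, Ina and Isl1, which rose, Elavl4, which fell, and Elavl3, Ngfr and Chga, which did not pass. GGACAGC was found in 1 gene, Map2 (4.55%, against 6.14%), and TCAGCACC, the left part of RE1, in 2, Ednrb and Tubb3 (9.09%, against 1.49%). CCGGAA, the core bound by ETS factors, was found in 1 gene, Ngfr (4.55%, against 13.6%). In these windows 0 matches of 1 motif shared a base with a match of another, and a match is a description of the sequence.

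Other genes of nerves were taken from lists that shared no gene with the set. Among 27 further pan-neuronal genes there were 10 rises, 1 fall and 16 that missed the threshold, with a median log2 fold change of 0.25. The share that passed was 40.7%, against 28.1% of all genes, and the share that rose was 37%, against 13.7%. Stmn2, a microtubule regulator of growing axons, rose 5.59-fold, Sncg, gamma-synuclein, 2.85-fold, Scn3a, a sodium channel subunit, 2.57-fold, and Celf4, an RNA-binding protein gene, 1.69-fold (adjusted p = 3.2e-05, 8.61e-05, 0.000128 and 0.000145). Among the vesicle-release genes of this list, all named after their values were seen, Vamp2, the vesicle SNARE, and Stx1a, a SNARE of the target membrane, rose by 0.75 and 0.39 (adjusted p = 0.000221 and 0.0495). The synapsin genes Syn1 and Syn2 and the vesicle GTPase genes Rab3a and Rab3c stood at 0.25, 0.15, 0.31 and 0.046 and missed the threshold (adjusted p = 0.0513, 0.254, 0.0863 and 0.707). Kif5c, a kinesin of neurons named on the same footing, fell by 1.01 (adjusted p = 0.0023).

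The lists of single nerve cell types are given beside the 13.7% of all genes that rose and the 14.3% that fell. The 17 further glial and Schwann cell genes had 4 rises, 3 falls and a median of 0.16. Gfra3, the artemin co-receptor gene, rose by 1.42 and Pmp22, a myelin protein gene, by 0.65, whereas Erbb3, the neuregulin receptor of Schwann cells, fell by 0.74. Ncam1, an adhesion molecule gene, rose by 0.32. The remaining changes of this list were named after their values were seen. Cryab was the remaining rise, at 0.96 (adjusted p = 0.0135). The other falls were Mbp, also a myelin protein gene, and L1cam, also an adhesion molecule gene. Mbp stood at -0.28 and L1cam at -0.34 (adjusted p = 0.0157 and 0.0204). The Schwann cell genes Sox2, Cdh19 and Egr2, named after their values were seen, stood at -0.045, 0.17 and 0.017 (adjusted p = 0.877, 0.258 and 0.883). They are 3 of the 10 genes of this list that did not pass. Among those 10, Pmp2, named on the same footing, alone had separate groups, at 0.18 (adjusted p = 0.154). The 17 further sympathetic and chromaffin genes had 2 rises, 1 fall and a median of 0.10: Gata2, a factor also used by endothelium and blood, rose by 0.72, Scg3, a granule protein gene, by 0.55, and Ddc, the enzyme between Th and Dbh, fell by 0.37. Of 13 sensory and cholinergic genes 1 rose, Runx1, also a blood gene, by 0.75, and the median was 0.042. In which cells of the kidney the genes of these lists rose or fell was not tested.

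Signals that guide crest cells and axons, and their receptors, went both ways, with 5 of 14 genes higher, 3 lower and 6 not passing. The share that passed was 57.1%, against 28.1% of all genes. Gdnf, Ret and Gfra1 fell, with log2 fold changes of -1.73, -2.46 and -1.92, in a pathway used by both the ureteric bud and autonomic neurons. Nrg1, the Schwann cell growth factor gene, rose by 1.01 (adjusted p = 4.33e-05). The other rises, named after their values were seen, were Gfra2 at 1.42, Ntrk2 at 0.97, Edn1 at 0.83 and Edn3 at 0.56 (adjusted p = 8.17e-05, 0.000288, 0.00135 and 0.00404).

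**Figure D3:**
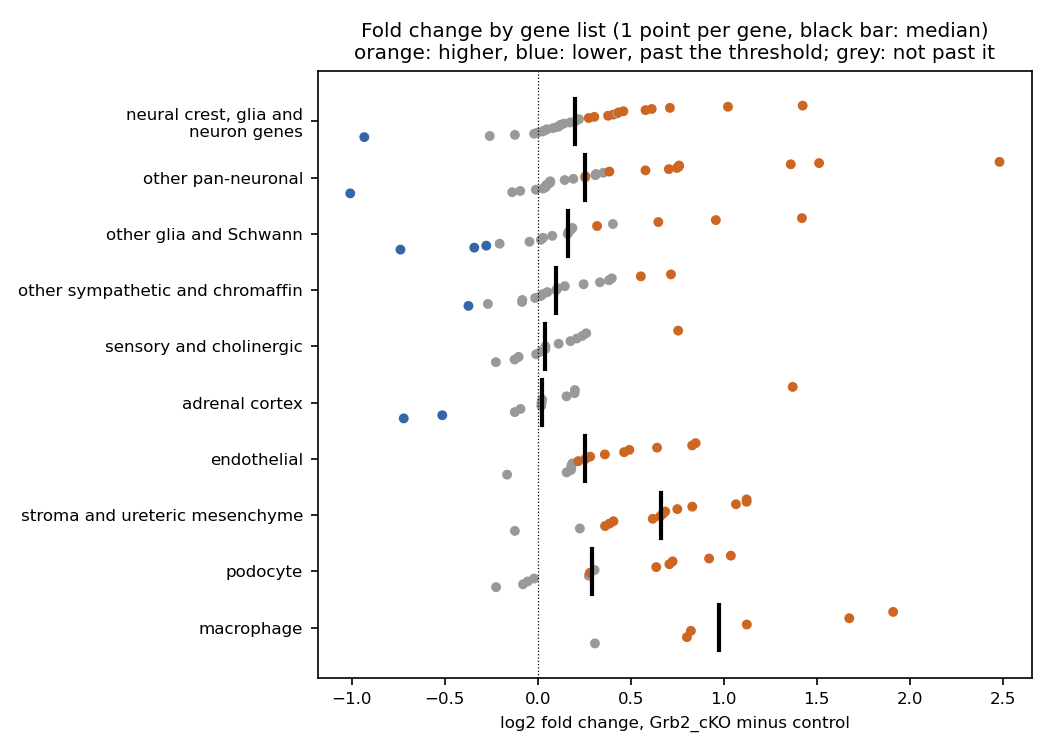
Log2 fold change, Grb2_cKO minus control, of each gene (point) in the 29-gene neural set and in other marker lists, with the median of each list as a black bar. The medians are 0.20 for the set, 0.25 for further pan-neuronal genes, 0.16 for glia, 0.10 for sympathetic and chromaffin genes and 0.66 for stroma.

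Markers of other cell types moved with the group beside these genes. Over all genes 13.7% rose and 14.3% fell, 28.1% in either direction. For each list the mean level over its genes was taken in each embryo. In stroma and ureteric mesenchyme 12 of 14 genes rose, and control kidneys had list means of 10.2 to 10.4, Grb2_cKO kidneys of 10.8 to 11.0. In endothelium 9 of 15 rose, with means of 9.45 to 9.58 and 9.72 to 9.97. Of the podocyte list 6 of 12 rose, with means of 9.54 to 9.61 and 9.79 to 10.1. In macrophages 5 of 6 rose, with means of 7.84 to 8.04 and 8.88 to 9.28. All 4 erythroid genes measured rose, with means of 6.94 to 7.73 and 8.17 to 8.62. The kidney marker list went the other way, with 8 of 14 genes lower and 3 higher and means of 10.2 to 10.4 in controls and 9.82 to 10.001 in Grb2_cKO. The 3 higher genes are counted in other lists too, Foxd1 in stroma and Wt1 and Nphs1, named for this overlap, in podocytes. In the adrenal cortex, whose tissue would come with chromaffin cells, 1 of 11 genes rose and 2 fell, with means of 5.84 to 5.97 and 5.79 to 6.17. The share of this list that passed, 27.3%, was near the 28.1% of all genes. There Hsd3b6 rose by 1.37, Mc2r and Nr0b1 fell (-0.72 and -0.51), and the steroid genes Star, Cyp11a1 and Nr5a1, named after their values were seen, stood at -0.092, 0.20 and 0.021 (adjusted p = 0.663, 0.276 and 0.888). The part of these cell types in the changes of the neural genes was not tested.

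Sex was unequal between the groups, and a covariate for it, the mean of the Y-linked genes, was added to the model. Then 4 of the 29 genes passed, against 5.62% of all genes. They were Syt1 at 1.42 (adjusted p = 0.00649), Map2 at 0.71 (0.0148), Snap25 at 1.05 (0.0149) and Elavl4 at -0.92 (0.023). All 4 were among the 12 genes that had passed without a covariate. The other 8 missed the threshold, at 0.24 for Mapt (0.344), 0.31 for Syp (0.172), 0.37 for Fabp7 (0.188), 0.46 for Dcx (0.0663), 0.47 for Isl1 (0.205), 0.49 for Elavl2 (0.063), 0.66 for Dbh (0.111) and 0.98 for Ina (0.115). These values depend on control replicate 3, since no other control had Y-linked genes at that level. With that embryo as the only control, a comparison chosen after the data were seen, 3 genes passed: Syt1 at 1.41, Snap25 at 1.05 and Map2 at 0.70 (adjusted p = 0.0365, 0.0365 and 0.0484). Elavl4 stood at -0.92 (adjusted p = 0.0666), and 1.28% of all genes passed. The lone control is assumed there to vary like the Grb2_cKO embryos.

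The mean of the erythroid list, which did not overlap between the groups, was used as a second covariate. Syt1, at 1.78, was then the 1 gene of the set that passed (adjusted p = 0.0249), against 1.28% of all genes. Snap25 stood at 0.90 (adjusted p = 0.119), Map2 at 0.67 (0.0974) and Elavl4 at -0.86 (0.139). The erythroid mean and the group cannot be told apart in these embryos.

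**Figure D4:**
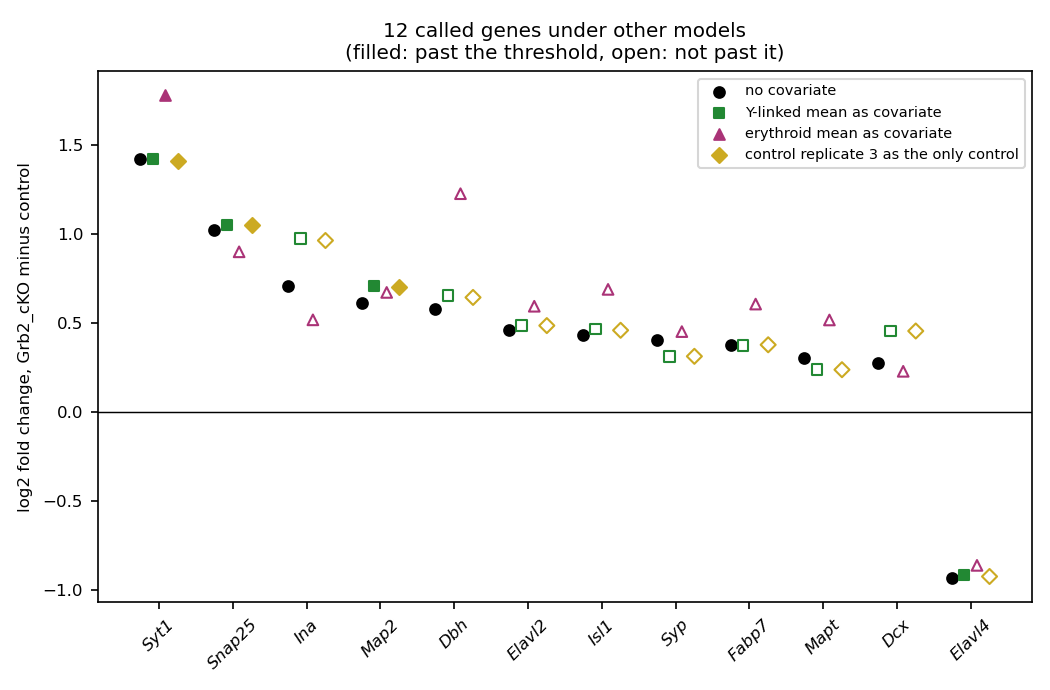
Log2 fold change, Grb2_cKO minus control, of the 12 called genes without a covariate (black circles), with the mean of Y-linked (green squares) or erythroid genes (purple triangles) as a covariate, and with control replicate 3 as the only control (yellow diamonds). Filled symbols passed the threshold and open ones did not; Syt1 is filled in all 4 settings, and every gene keeps its side of 0 in them.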

How the data were processed

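RNA of 8 samples, each the pooled kidneys of 1 embryo, was amplified from 200 ng of total RNA with an Ambion WT kit and measured on 1-colour arrays, per the labels' protocols. The authors deposited log2 probe-set values, which ran from 1.25 to 14.08. Their range shows that scale. Per the submitters' processing notes they were made with the Transcriptome Analysis Console. Background correction, normalization and build are steps not given in the sources used here. Probe sets were named through the platform annotation (23521 of 41345 with 1 symbol, 1814 with several, 16010 with none). For 23328 of those with 1 symbol, the symbol was taken from GRCm38.p6 RefSeq, whether or not it differed.

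The groups were compared in limma 3.58.1 (R 4.3.3) with no covariate, with Benjamini-Hochberg adjustment over 22180 genes at 0.05. This model gave every adjusted p-value and SE for which no other is named. P-values measure the spread between embryos of 1 litter. Replicate numbers follow the order of the records. The members, roles and lists were chosen with earlier results of these data known. Every member is named, with values by embryo for those past the threshold and for others whose spread is described. From other lists at most the 4 members of smallest p are named, other names are marked, and some lists are given by counts and levels alone. Alternatives were other scalings, a filter on dim genes, the mean of probe sets, other spread models, array weights, 2 covariates, and leaving out each embryo.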

Additional observations from a re-analysis of the deposited data

Results flagged for a closer look

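Within a group of 4 embryos, 5 of 58 sets of values, for 29 genes in 2 groups, held 1 embryo that lay far from the others: its gap to the nearest embryo, as a share of the group's range, was above Dixon's critical value at 95%. Chance gives about 1 in 20 such sets. Sox10 was highest in Grb2_cKO replicate 1, at 6.33, with the others at 6.17 to 6.19. Map2 was highest in Grb2_cKO replicate 4, at 9.21, with the others at 9.10 to 9.11. Dcx was lowest in control replicate 3, at 8.69, with the others at 8.91 to 8.95. Th was lowest in Grb2_cKO replicate 2, at 6.49, with the others at 6.74 to 6.78. Chga was highest in Grb2_cKO replicate 3, at 7.81, with the others at 7.35 to 7.41.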

How the results depend on the processing

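Over 490 refits of single genes of the set (17 alternatives), 413 kept direction and side of the threshold, 43 lost it, 6 gained it (Th and Chgb, 3 times each) and 28 changed sign. Only refits of the 12 genes that passed could lose the threshold, and the 413 also hold refits of the 17 genes that did not pass. The count of genes that rose was 9 to 12 and of genes that fell 1 when each embryo was left out in turn, the median of the set was 0.16 to 0.26, and the count over all genes was 4894 to 5955. With array medians set equal, 9 of the set were higher, and the median was 0.13 over the set and -0.062 over all genes. After quantile normalization 11 were higher, and these medians were 0.15 and -0.013. With the Y-linked covariate 1246 of all genes passed, and 3 of the set were higher. With the erythroid covariate 283 of all genes passed, 1 of the set was higher and 0 were lower, and the median of the set was 0.34. With control replicate 3 as the only control 285 of all genes passed, 3 of the set were higher and 0 lower. With 0 lower, the gene concerned is Elavl4, whose values stand in the report. The causes were not tested, beyond the fewer controls in the last of these. Signs changed only for genes that did not pass without a covariate or under the alternative, where adjusted p was 0.354 or more. Nefh stood at -0.037 after quantile normalization, -0.043 after centring, -0.014 with array weights, -0.24 with the Y-linked covariate, -0.24 against control replicate 3 and -0.056 to 0.11 with embryos left out. Hand2 stood at -0.030 after centring, -0.13 with the Y-linked covariate, -0.12 against control replicate 3 and -0.021 to 0.091 with embryos left out. Nefm stood at -0.017 after centring, -0.27 with the erythroid covariate and -0.077 to 0.15 with embryos left out. Sox10 stood at 0.0075 with array weights and -0.11 to 0.071 with embryos left out. Nefl stood at 0.078 with the Y-linked covariate and 0.068 against control replicate 3. Tubb3 and Prph stood at -0.12 and -0.052 with the erythroid covariate, and Uchl1 at -0.12 to 0.064 with embryos left out. No paired analysis was made, because each array stands for a different embryo of 1 group and the labels name no pairs.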
